A study of Caenorhabditis elegans with 2 samples.

Results

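The peaks described here are the intergenic peaks of the transcription factor DAF-16 that lie close to the start of a protein-coding transcript in Caenorhabditis elegans. They were chosen by position alone. The summit had to lie outside every protein-coding gene body, at most 500 bp from the nearest protein-coding transcript start, and more than 100 bp from any transfer RNA, small nucleolar RNA or small nuclear RNA gene. Of 1464 nuclear entries in the authors' optimal peak set on ce11, 312 met this rule, or 21.3%. They are called start-proximal peaks below. Of the others, 370 were intergenic and farther from a start, 334 lay inside protein-coding genes, and 448 lay by a small RNA gene of the 3 kinds named.

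There was 1 group, sampled as 2 biological replicates, and no condition was compared with another. Each was made from whole hermaphrodites of strain ZM8745 at the L4 larval stage, 54 hours after release from synchronization by bleaching and starvation as L1 larvae. The animals were double mutants, daf-16(mu86), a deletion, and daf-2(e1370), an allele of the insulin receptor gene. They also carried hpSi15, an insertion in which the ges-1 promoter, active in the intestine, drives the daf-16a isoform joined to GFP, which was precipitated with anti-GFP antibody. The tagged protein therefore stands for intestinal DAF-16 and not for that of other tissues. According to the labels the tag is in front of daf-16a in 1 place and at the C-terminus, with FLAG, in another. The deposited peak lists give no read counts, and depth is unknown. No input or untagged library was analysed here, so signal independent of the tagged protein was not measured.

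DAF-16 is the FOXO transcription factor of the worm. Insulin-like signalling through DAF-2 keeps it out of the nucleus, and weak signalling, as in daf-2 mutants, lets it enter and act on genes of stress resistance, metabolism and lifespan. It binds the element TGTTTAC (or TATTTAC) directly, and a second sequence linked to its targets, TGATAAG, is also a site for GATA factors such as ELT-2, which governs intestinal genes. In the compact worm genome a promoter may serve a single gene, or it may lie between the starts of a pair of genes transcribed away from each other, which is a divergent promoter. Many worm transcripts are trans-spliced, so an annotated start may be a splice acceptor downstream of the point where transcription begins, and distances to starts carry that uncertainty.

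The following sequences are shown because they carry the motif results and the strongest signals. Each is the plus strand of ce11, from RefSeq's copy of that assembly (WBcel235), 5′ to 3′, from 50 bp to the left to 50 bp to the right of the summit, and capitals mark the motif TGATAAG, the motif TGTTTAC, the motif GACGCAG and the motif GAGAGAG, or the reverse complement of each. The 4 highest-signal peaks with TGATAAG were those at lec-6 (chrIII:600791-600891), B0507.3 (chrV:8768593-8768693), lro-1 (chrX:6271888-6271988) and elt-2 (chrX:10480713-10480813).
lec-6: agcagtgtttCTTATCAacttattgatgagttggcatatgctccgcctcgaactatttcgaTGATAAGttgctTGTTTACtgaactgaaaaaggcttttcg
B0507.3: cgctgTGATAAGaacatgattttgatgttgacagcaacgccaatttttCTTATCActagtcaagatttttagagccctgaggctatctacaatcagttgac
lro-1: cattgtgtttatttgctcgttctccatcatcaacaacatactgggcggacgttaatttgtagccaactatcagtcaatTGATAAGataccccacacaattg
elt-2: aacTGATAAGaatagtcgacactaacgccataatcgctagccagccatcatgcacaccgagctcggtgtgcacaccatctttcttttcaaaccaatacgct
TGTTTAC is shown at bath-36 (chrV:15187771-15187871) and K08B5.2 (chrX:16554159-16554259), and the lec-6 window above also holds it.
bath-36: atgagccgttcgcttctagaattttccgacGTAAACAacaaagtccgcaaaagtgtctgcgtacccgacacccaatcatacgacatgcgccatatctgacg
K08B5.2: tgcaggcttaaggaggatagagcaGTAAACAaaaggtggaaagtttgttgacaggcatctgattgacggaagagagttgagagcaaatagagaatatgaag
GACGCAG is shown at sec-61.G (chrV:10897308-10897408) and hsp-3 (chrX:6092101-6092201), while the GAGAGAG motif is shown by its windows near T13C5.6 (chrX:6207798-6207898) and xbp-1 (chrIII:4193740-4193840).
sec-61.G: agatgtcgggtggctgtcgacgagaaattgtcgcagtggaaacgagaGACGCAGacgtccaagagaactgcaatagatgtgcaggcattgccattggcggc
hsp-3: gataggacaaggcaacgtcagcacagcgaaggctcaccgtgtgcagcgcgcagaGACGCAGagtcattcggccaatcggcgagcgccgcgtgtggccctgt
T13C5.6: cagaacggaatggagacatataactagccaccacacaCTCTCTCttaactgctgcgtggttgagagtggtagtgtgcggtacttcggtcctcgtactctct
xbp-1: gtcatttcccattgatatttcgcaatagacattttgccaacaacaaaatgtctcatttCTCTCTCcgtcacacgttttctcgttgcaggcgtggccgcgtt
The windows of the peaks with the highest signals, at rpl-3 (chrIII:3867514-3867614) and rpl-15 (chrIV:654910-655010), hold none of the 9 motifs searched.
rpl-3: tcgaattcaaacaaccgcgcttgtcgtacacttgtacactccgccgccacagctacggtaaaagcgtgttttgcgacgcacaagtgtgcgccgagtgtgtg
rpl-15: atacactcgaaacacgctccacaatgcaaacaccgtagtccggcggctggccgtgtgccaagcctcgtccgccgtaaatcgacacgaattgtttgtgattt

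The summits lay a short way upstream of starts. The distance to the nearest start had a median of 199 bp and ran from 1 to 498 bp. Of the 312 summits, 308 were upstream of the nearest start and 4 were past the far end of a short gene. Within 100 bp of a start lay 67 summits, 91 were between 100 and 200 bp away, 81 between 200 and 300 bp, 41 between 300 and 400 bp, and 32 between 400 and 500 bp. The pooled list below the optimal set held 3173 peaks that meet the same position rule, and these are the lower-ranked peaks used for comparison, background entries of that list included. Their median distance was 189 bp, and 894 of them lay within 100 bp. The intergenic stretch around the summit had a median length of 956.5 bp at the start-proximal peaks and 995 bp at the lower-ranked ones. All the start-proximal peaks had an interval of their own, and 279 were 420 bp wide.

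**Figure D1:**
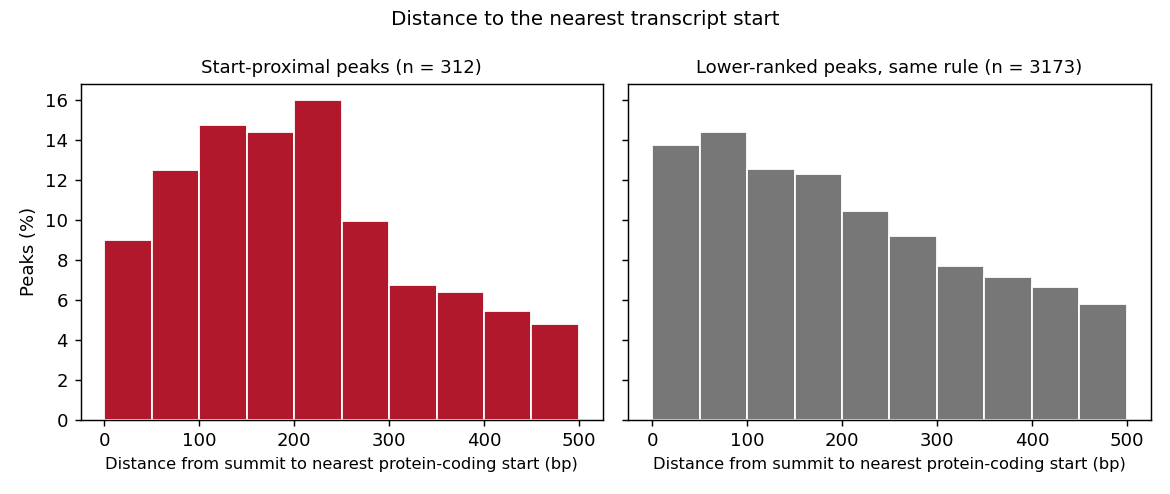
Percent of peaks (vertical axis) by distance from the summit to the nearest protein-coding start in bins of 50 bp (horizontal axis), for 312 start-proximal peaks on the left and 3173 lower-ranked peaks of the same rule on the right. The start-proximal peaks were most frequent from 200 to 250 bp, with 16.03%, and the lower-ranked ones from 50 to 100 bp, with 14.4%.

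Peaks on either side of the limits are given as a description. Just inside 500 bp were the peaks at srz-62, a chemoreceptor gene, 498 bp away with a signal of 169.9, and at faah-2, a fatty acid amide hydrolase gene, 496 bp away with 110.9. Just outside, both at 501 bp, were those at ubql-1 with 104.4 and F53C3.1 with 117.0. At the 100 bp limit for small RNA genes, the peaks at Y43D4A.5, 104 bp from a transfer RNA gene and with a signal of 96.3, and at rpl-7A, 367 bp from a small nucleolar RNA gene and with 94.1, were kept. Those at F09G2.2, 90 bp away with 121.7, and at K05F1.6, 89 bp away with 207.1, were left out. Other kinds of non-coding gene were not part of the rule, and 39 start-proximal peaks lay within 100 bp of one. Of the 39, 35 were annotated as ncRNA, 2 as miRNA, 1 as lincRNA and 1 as a pseudogene. No such count is given here for other peaks, so whether 39 is unusual was not tested.

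Divergent promoters held a larger share of the start-proximal peaks than of lower-ranked peaks in the same kind of position. A peak was called divergent when its summit had, within 500 bp, the start of a minus-strand gene on its left and of a plus-strand gene on its right, and single otherwise. This was so for 68 of 312 start-proximal peaks, a share of 21.8% (exact 95% interval 17.3% to 26.8%), against 406 of 3173 lower-ranked peaks, 12.8% with an interval from 11.7% to 14.01%. The ratio was 1.70 (Fisher's exact test, two-sided, p = 2.89e-05, adjusted p = 0.000145 over 5 comparisons). The difference between these shares was 5.79 percentage points with starts at most 300 bp away (adjusted exact p = 0.0302). Counting all neighbouring genes that face away from each other, whatever the distance, 179 start-proximal peaks lay between head-to-head genes. Another 131 lay between genes in tandem and 2 between genes that end towards each other. Among lower-ranked peaks 1403 of 3173 lay between head-to-head genes, a share smaller by 13.2 percentage points. Of the 244 single peaks, 111 lay between head-to-head genes without both starts within 500 bp. Single therefore does not mean that the neighbouring genes are in tandem.

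The chromosomes differed in how many divergent promoters they offered, and the direction of the difference was the same on each. On X, 5 of 67 start-proximal peaks were divergent, 7.46%, against 3.63% of 441 lower-ranked peaks. The autosomes had 63 of 245, 25.7%, against 14.3% of 2732, and a fit on these alone, chosen after the data were seen, gave a difference of 11.4 percentage points (Fisher's exact test, adjusted p = 3.52e-05). The share was highest on I, with 41.7% of 36 start-proximal peaks against 16.1% of lower-ranked ones, and lowest among the autosomes on V, with 16.7% of 66 against 11.8%. Exact intervals overlapped on II, III, V and X, and single chromosomes were not tested.

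**Figure D2:**
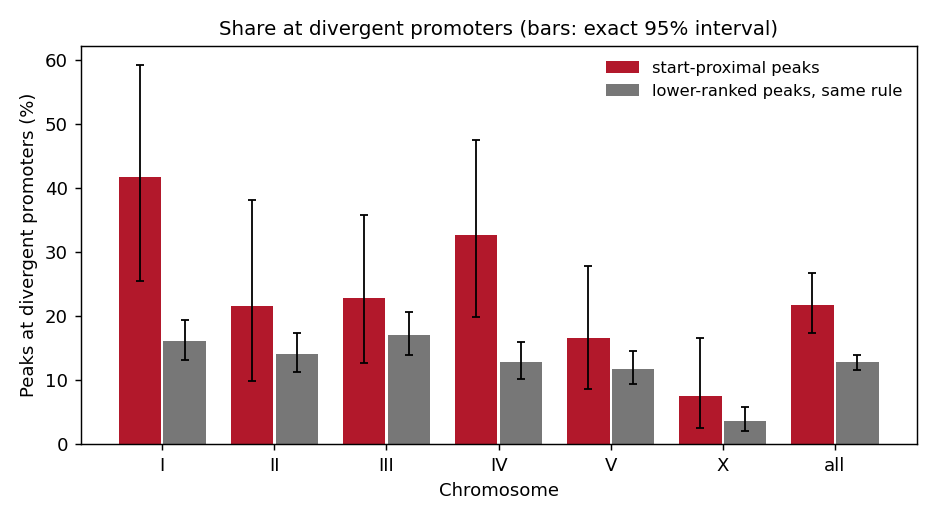
Percent of peaks at divergent promoters (vertical axis) by chromosome and over all chromosomes (horizontal axis), start-proximal peaks in red and lower-ranked peaks of the same rule in grey, with exact 95% intervals. The red bar is the higher of each pair, with 21.8% against 12.8% over all.

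Measured per length of sequence that the rule admits, divergent stretches held 142.2 start-proximal peaks per Mb and single ones 34.5 per Mb. Sequence within 500 bp of a start and outside genes came to 7.54 Mb, of which 6.34% was divergent. The lower-ranked peaks were also divergent at a larger share than that, 12.8%. The contrast per Mb is thus in part shared by the lower-ranked peaks. Over both kinds, III had 64.9 start-proximal peaks per Mb, X had 56.2, and the other chromosomes had between 29.4 on II and 39.2 on IV. At divergent promoters the starts were 89 to 814 bp apart, with a median of 451 bp. The distance from summit to nearer start was a median share of 0.344 of that between both starts. The nearest start was a median of 152.5 bp from divergent summits and 224 bp from single ones, a difference that the need for a second start nearby partly fixes.

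The highest 2 start-proximal signals were at genes of the ribosome. The peak at rpl-3, which encodes a protein of the large ribosomal subunit (chrIII:3867430-3867718), had a pooled signal of 426.8, with 226.2 in replicate 1 and 203.4 in replicate 2, and ranked 6 of the 1464 nuclear peaks. The divergent peak between rpl-15, another large subunit gene, and K11H12.8, a growth hormone-inducible transmembrane protein gene in RefSeq (chrIV:654818-655047) had 378.9, with 224.1 in replicate 1 and 148.9 in replicate 2. Both replicates placed these among their highest 22 nuclear peaks. Signals are the authors' values per peak, and each list has its own scale, so they serve to rank peaks within a list.

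The divergent peak between bath-36, which encodes a BTB and MATH domain protein, and the cyclophilin gene cyn-7 had 343.5, with 166.0 in replicate 1 and 178.1 in replicate 2. At lec-6, a galectin gene, the signal was 312.0, with 147.7 in replicate 1 and 159.1 in replicate 2. Between H12C20.7 and the nuclear hormone receptor gene nhr-68 it was 298.9, with 158.1 in replicate 1 and 142.9 in replicate 2. Each of these ranked among the highest 66 nuclear peaks of both replicates. The peak at wip-1, which encodes a WH2 domain protein, had 295.5, with 159.6 in replicate 1 and 136.7 in replicate 2. Between Y17G9B.5, a mitochondrial Toll pathway intermediate in RefSeq, and the large subunit gene rpl-20 the signal was 287.7, with 164.0 in replicate 1 and 126.9 in replicate 2. At K08B5.2, an F-box domain gene, it was 280.5, with 144.9 in replicate 1 and 138.5 in replicate 2. By nuclear rank within each list, wip-1 was at 46 in replicate 1 and 35 in replicate 2, and K08B5.2 at 69 in replicate 1 and 33 in replicate 2. The signal at tasp-1, a taspase homologue, was 276.3, with 136.7 in replicate 1 and 131.5 in replicate 2. At serp-1.1, named in RefSeq as a stress-associated protein of the endoplasmic reticulum, it was 261.2, with 134.4 in replicate 1 and 125.6 in replicate 2.

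Completing the 15 highest was first T13C5.6, which encodes a protein with a phosphatidic acid phosphatase domain, with 260.3 pooled, 149.7 in replicate 1 and 113.6 in replicate 2. F47D12.9, a WD repeat gene, had 255.9 pooled, 138.5 in replicate 1 and 113.0 in replicate 2. B0507.3, a Mediator subunit gene in RefSeq, had 253.9 pooled, 134.1 in replicate 1 and 113.8 in replicate 2. By nuclear rank, T13C5.6 was at 61 in replicate 1 and 72 in replicate 2, F47D12.9 at 80 in replicate 1 and 73 in replicate 2, and B0507.3 at 97 in replicate 1 and 70 in replicate 2. The last places went to sec-61.G, a subunit of the channel that moves proteins into the endoplasmic reticulum, with a pooled signal of 248.8, and to xbp-1, the transcription factor of the unfolded protein response, with 240.7. At sec-61.G replicate 1 had 156.7 and replicate 2 had 86.7, and at xbp-1 replicate 1 had 153.9 and replicate 2 had 93.9. The nuclear rank of sec-61.G was 51 in replicate 1 and 217 in replicate 2, and that of xbp-1 was 53 in replicate 1 and 161 in replicate 2. Of the 15, 4 were divergent. The 5 highest divergent peaks were those at rpl-15, bath-36, nhr-68 and rpl-20 and the one between ears-2, a mitochondrial glutamyl-tRNA synthetase gene, and uncp-18, which RefSeq names as a syntaxin-binding protein, with 211.6 pooled, 118.99 in replicate 1 and 91.9 in replicate 2.

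**Figure D3:**
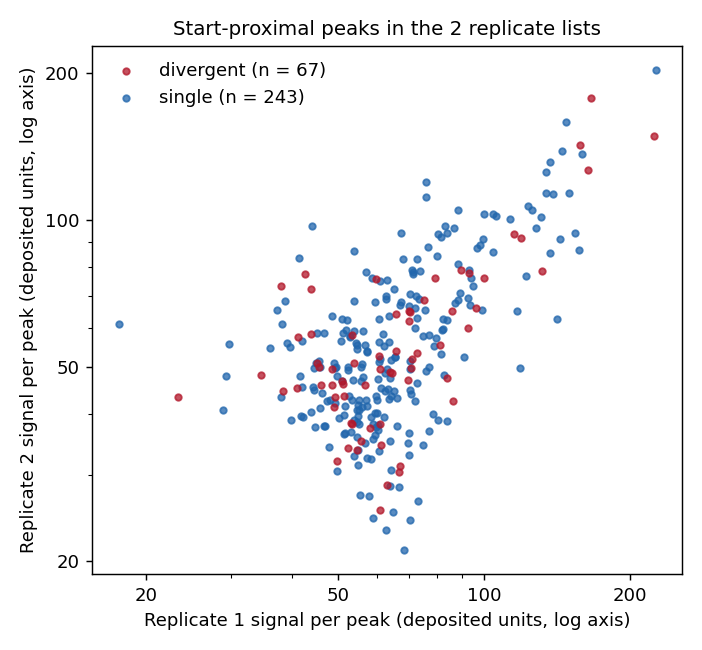
Signal per peak in the replicate 2 list (vertical axis, log scale) against that in the replicate 1 list (horizontal axis, log scale) for the 310 start-proximal peaks with an entry in both, 67 divergent in red and 243 single in blue. The rpl-3 peak is at the upper right, and the eor-2 peak, with 17.6 in replicate 1 and 61.1 in replicate 2, is farthest to the left.

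Most of the peaks had an entry in each replicate list, with uneven ranks lower in the list. The optimal set was itself derived from both replicates and thresholded on reproducibility. Presence in both lists follows in part from that choice, for start-proximal and far intergenic peaks alike. An overlapping entry was present for 311 in the replicate 1 list and for 311 in the replicate 2 list, and for 310 in both. The peak between snx-13 and snr-1, with 102.7 pooled and 83.2 in replicate 1, had none in replicate 2. The replicate lists hold background entries as well, so a stricter count used the 1489 highest-signal entries of each. By that count 192 of 312 start-proximal peaks were in both replicates, 61.5% with an exact interval from 55.9% to 67.0%, and so were 237 of 370 far intergenic peaks, 64.1% with an interval from 58.9% to 68.9% (Fisher's exact test, two-sided, p = 0.525, adjusted p = 0.938). Of the rest, 60 were in replicate 1 alone, 46 in replicate 2 alone and 14 in neither.

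The ranks differed most between replicates at eor-2, at the divergent peak between C01G10.9 and C01G10.10, and at B0272.3. At eor-2 the nuclear rank was 20241 in replicate 1 and 615 in replicate 2. Between C01G10.9 and C01G10.10 it was 10780 in replicate 1 and 1328 in replicate 2, and at B0272.3, a putative hydroxyacyl-CoA dehydrogenase gene, 734 in replicate 1 and 8267 in replicate 2. Their pooled signals of 87.3 at eor-2, 88.2 at C01G10.9 and 84.7 at B0272.3 were near the lowest of the start-proximal peaks, 84.4. Neither replicate ranked the peaks higher throughout, with 148 better placed in replicate 1 and 162 in replicate 2.

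No difference in rank between start-proximal and other peaks away from small RNA genes was detectable. Among the upper 732 of the 1464 nuclear peaks by signal were 130 of 312 start-proximal peaks, 41.7% with an exact interval from 36.1% to 47.4%. Of far intergenic peaks 156 of 370 were there, 42.2% with an interval from 37.1% to 47.4% (Fisher's exact test, two-sided, p = 0.938, adjusted p = 0.938). Of peaks inside genes 138 of 334 were there, 41.3% with an interval from 36.0% to 46.8% (exact p = 0.936, adjusted p = 0.938). With replicate 2 left out the difference from far intergenic peaks was -8.20 percentage points (adjusted exact p = 0.0969), against -0.50, and with replicate 1 left out the difference from peaks inside genes was 6.58 points (0.224), against 0.35. Of the peaks by small RNA genes 42.2% were in the highest 366, against 17.9% of the start-proximal ones. The start-proximal peaks had 7 among the highest 50 nuclear peaks and 20 among the highest 100, and a median signal of 110.5, against 111.2 at far intergenic peaks and 112.4 inside genes.

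No difference in rank between divergent and single promoters was detectable either. The upper 732 held 29 of 68 divergent peaks, 42.6% with an exact interval from 30.7% to 55.2%, and 101 of 244 single ones, 41.4% with an interval from 35.1% to 47.9% (Fisher's exact test, two-sided, p = 0.890, adjusted p = 0.938). The median signal was 109.3 at divergent and 110.7 at single promoters. The difference in the upper ranks was 1.25 percentage points, and over the alternatives it ran from -9.52 with starts at most 300 bp away to 7.75 with replicate 2 left out.

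**Figure D4:**
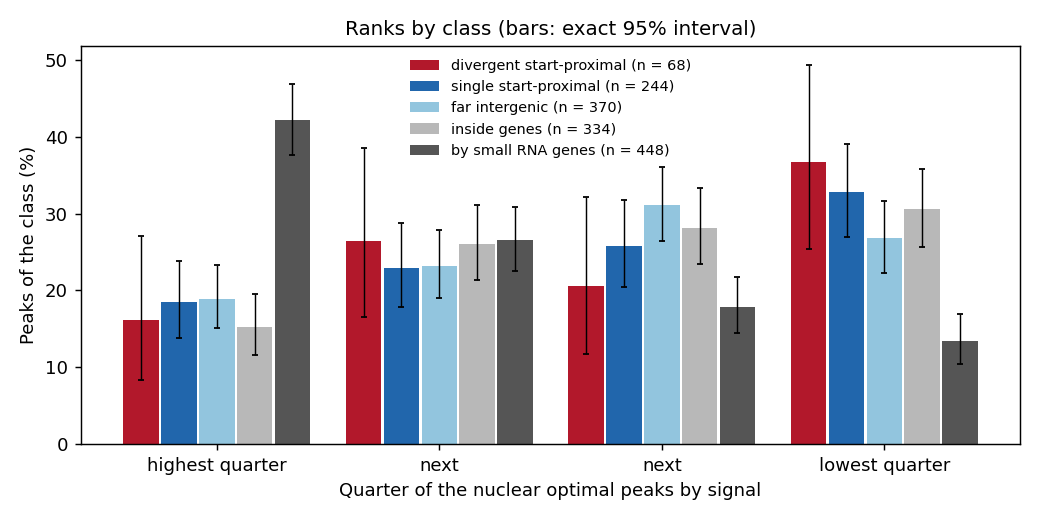
Percent of the peaks of each class (vertical axis) that fall in each successive 366 of the 1464 nuclear optimal peaks by signal (horizontal axis, highest on the left), with exact 95% intervals. Divergent and single start-proximal peaks had 16.2% and 18.4% in the highest 366, far intergenic peaks 18.9%, peaks inside genes 15.3% and peaks by small RNA genes 42.2%.

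The GATA-like element TGATAAG was more frequent at the summits than beside them. Within 50 bp of the summit it was present at 30 of 312 start-proximal peaks, a share of 9.62% (exact interval 6.58% to 13.4%), and at 6 of 312 equally long windows lying 500 bp off on the side away from the start, 1.92% (exact McNemar test, two-sided, p = 3.86e-05, adjusted p = 0.000174 over 9 motifs). It was in 5.33% of lower-ranked peaks of the same rule, and in 2.73% of 19150 windows of the same length taken 199 bp upstream of all protein-coding starts and outside genes. The median GC content was 46.5% in the summit windows, 35.6% in the flanks and 34.7% in the lower-ranked windows. The part of GC content in the motif counts was not tested. The element was at 47 of 370 far intergenic peaks, 12.7%, and the difference from the start-proximal ones did not pass (Fisher's exact test, p = 0.226, adjusted p = 0.508). With windows of 100 bp to each side it did, with a difference of -8.48 percentage points (adjusted exact p = 0.0142, and between 0.0142 and 0.612 over all alternatives).

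None of the divergent summit windows held TGATAAG. It was at 0 of 68 divergent summits, with an exact upper bound of 5.28%, and at 30 of 244 single ones, 12.3% with an exact interval from 8.45% to 17.1% (Fisher's exact test, two-sided, p = 0.000712, adjusted p = 0.00320). On X it was at 11 of 62 single peaks and on the autosomes at 19 of 182. The shorter GATA core TGATAA, which each TGATAAG contains, was at 3 of 68 divergent and 52 of 244 single summits (exact p = 0.000554, adjusted p = 0.00320). The TGATAAG call was lost in several settings: with starts at most 300 bp away (adjusted exact p = 0.160), in the highest-signal peaks of replicate 2 alone (0.104) or replicate 1 alone (0.113), and with head-to-head neighbours at any distance counted as divergent (0.787). In the last setting the difference was -1.59 percentage points, against -12.3 by the main definition, and the TGATAA call was also lost with 300 bp (adjusted exact p = 0.123) and with replicate 2 left out (0.113). Median GC content was 48.5% at divergent and 45.5% at single summits, and its part in the difference was not tested.

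The highest-signal peaks with TGATAAG were those at lec-6, B0507.3, lro-1, elt-2 and srz-62. The lec-6 and B0507.3 windows hold the element on both strands, as the sequences above show. At lro-1, named for lysosome-related organelles, the signal was 197.5 pooled, 99.5 in replicate 1 and 91.7 in replicate 2. At elt-2, the GATA factor gene of the intestine (chrX:10480553-10480972), it was 173.2 pooled, 81.6 in replicate 1 and 92.2 in replicate 2, with the summit 477 bp from the start. The peak at srz-62 had 169.9 pooled, 93.2 in replicate 1 and 79.1 in replicate 2. The motif lay a median of 26.5 bp from the summit, within 20 bp in 13 of 30 peaks, and in the orientation of the nearest gene in 15. It was at 12 of the 130 start-proximal peaks in the upper 732 ranks, 9.23%, and at 18 of the other 182, 9.89%.

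The binding element of DAF-16 itself was found at few summits. TGTTTAC was at 15 of 312, 4.81% with an exact interval from 2.72% to 7.81%, and at 6 of 312 flanks, 1.92% (exact McNemar test, two-sided, p = 0.0636, adjusted p = 0.0954). The call depended on the flank and the set. Against the flank towards the start the difference was 4.17 percentage points (adjusted exact p = 0.00176). That flank was centred past the nearest start, downstream of it for 308 of the 312 summits, so it is a different kind of sequence. Over all alternatives the adjusted exact p ran from 0.000934 to 0.166. In particular, with replicate 1 left out the difference was 4.42 points (adjusted exact p = 0.000934) and with replicate 2 left out 3.67 points (0.0111). The element was in 1.92% of lower-ranked peaks and 1.76% of all start windows. The TATTTAC form was at 4 of 312 summits, 1.28%, against 13 of 312 flanks, 4.17% (exact McNemar test, p = 0.0490, adjusted p = 0.0883). That difference of -2.88 percentage points was -0.32 with replicate 1 left out (adjusted exact p = 1) and -1.67 with replicate 2 left out (0.339), and it passed away from every non-coding RNA gene (-3.30, adjusted exact p = 0.0404).

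The highest-signal peaks with TGTTTAC were at bath-36, lec-6, K08B5.2, F47D12.9 and tmem-184, a transmembrane protein gene. Their pooled signals ran from 343.5 at bath-36 to 216.5 at tmem-184, where replicate 1 had 105.7 and replicate 2 had 102.2. At divergent promoters TGTTTAC was at 3 of 68 summits and at single ones at 12 of 244 (Fisher's exact test, adjusted p = 1). It shared a window with TGATAAG in 2 peaks. At 265 of the 312 summits neither the TGATAAG motif nor the TGTTTAC motif nor the TATTTAC form lay within 50 bp, and this window says nothing of binding without these letters.

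Among the other motifs searched, GACGCAG set the summits apart from their flanks most clearly. It was at 32 of 312, 10.3% with an exact interval from 7.12% to 14.2%, and at 2 of 312 flanks, 0.641% (exact McNemar test, two-sided, p = 1.54e-08, adjusted p = 1.38e-07). It was in 4.13% of lower-ranked peaks and 1.95% of all start windows. CCGCCC was at 29 summits against 6 flanks (adjusted exact p = 0.000199), and GAGAGAG at 24 summits against 6 flanks (adjusted exact p = 0.00322). CCGCCC was in 3.50% of lower-ranked peaks and 2.55% of all start windows, and GAGAGAG in 4.03% of lower-ranked peaks and 2.67% of all start windows. Far intergenic summits held GACGCAG at 9.46% of 370 (Fisher's exact test, adjusted p = 0.797), CCGCCC at 6.22% (0.445) and GAGAGAG at 12.2% (0.255). None is thus shown as particular to start-proximal peaks. With 100 bp to each side GAGAGAG was less frequent than at far intergenic peaks (-9.98 percentage points, adjusted exact p = 0.00367). The part of GC content in these counts was not tested. How the motifs of this paragraph were chosen was not recorded. If they were picked with these data known, the p-values against the flanks are too small. GACGCAG was at 10 of 68 divergent and 22 of 244 single summits (Fisher's exact test, adjusted p = 0.533). No summit window held both GACGCAG and TGATAAG.

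The remaining motifs did not pass against the flanks. The E-box CACGTG was at 16 summits and 7 flanks (exact McNemar test, adjusted p = 0.120), the TATA-like TATAAA at 20 and 24 (adjusted exact p = 0.644), and TGATAA at 55 and 43 (adjusted exact p = 0.252). CACGTG did pass with replicate 1 left out (adjusted exact p = 0.00858), with 1000 bp to a start (0.00819) and against the flank towards the start (0.0342), and its difference of 2.88 percentage points was 1.33 with replicate 2 left out (0.481). TGATAA did pass with replicate 1 left out (adjusted exact p = 0.00858), with replicate 2 left out (0.00780), against the flank towards the start (0.00318) and with 1000 bp to a start (0.0467). In all start windows CACGTG was at 1.60%, TATAAA at 12.9%, TGATAA at 11.1% and TATTTAC at 2.07%. TGATAA was less frequent at start-proximal than at far intergenic peaks, 17.6% of 312 against 28.4% of 370 (Fisher's exact test, adjusted p = 0.00961), a call lost with replicate 1 or replicate 2 left out, where the differences were -6.07 and -9.36 percentage points. None of the other 8 motifs passed in that comparison with windows of 50 bp to each side. At 159 of 312 summits none of the 9 motifs was present.

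A search of all 7-letter sequences, in the same summit windows as the motif search, gave GC-rich words. A motif that appears in both searches is thus not supported by separate data. Of 8192, counted with their reverse complements, 189 were in more summit windows than flank windows on both sides, 2.31%, by Fisher's exact test at an adjusted p below 0.05, and 53, or 0.647%, were less frequent at summits. The flank towards the start was centred past it, as said above. CTGCGTC, the reverse complement of GACGCAG, headed these, present at 10.3% of 312 summits but 0.641% of 624 flanks (adjusted exact p = 1.64e-08). The word GAGACGC overlaps it, and was at 8.97% and 0.321% (adjusted exact p = 1.64e-08). CTTATCA, the reverse complement of TGATAAG, was at 9.62% and 1.60% (adjusted exact p = 2.06e-05). AAAAATT was among the depleted words, with 4.17% in summits against 19.2% in flanks (adjusted exact p = 3.32e-08). The words in more summits had a mean of 4.56 G or C letters of 7, and those in fewer a mean of 1.09, against 3.5 over all 8192, so base composition and these counts cannot be told apart. With lower-ranked peaks as the background 137 words were more frequent, and with replicate 2 left out 100 were. The median GC content was 34.7% in the lower-ranked windows and 46.5% in the summit windows. That background is therefore not matched in base composition either.

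At least 1 start-proximal summit lay at most 500 bp from a start of 382 of 19973 protein-coding genes, or 1.91%. A single gene was near 240 of the peaks and a pair near 72, and 2 genes had more than 1 peak. The 68 divergent peaks accounted for 136 of the 382 genes. Of the 382, 31.2% had no name beyond a sequence name, against 45.4% of all protein-coding genes. The gene lists that follow are read against the 1.91% of all genes, with no test. They were made by gene name, so a gene of a family that carries another name is not counted, and genes said below to lie outside a list were picked after their values were seen. A gene counts for a divergent peak whether or not that peak acts on it, so the lists count nearness and not regulation.

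Lists of protein synthesis genes had shares above that of all genes, but not all of their exact intervals lay above it. Of 81 genes of cytosolic ribosomal proteins 12 had a peak, 14.8% with an exact interval from 7.90% to 24.4%. At divergent promoters were 8 of the 12, beside 136 of all 382 genes with a peak. With 300 bp to a start the count was 7. After the 3 ribosomal peaks given above, the next was at rpl-35, with 236.7 pooled, 143.5 in replicate 1 and 91.6 in replicate 2. No ribosomal peak held TGATAAG or TGTTTAC within 50 bp of its summit. Of all 382 genes with a peak, however, only 30 and 18 were at one that did. Of 40 translation factor genes 4 had a peak, namely iff-2, which encodes initiation factor 5A (210.0), eif-3.C (168.4), and the elongation factor 1-alpha genes eef-1A.2 (112.0) and eef-1A.1 (97.2), a count of 2 with 300 bp and of 2 away from every non-coding RNA gene. Of 32 aminoacyl-tRNA synthetase genes, ears-2 (211.6) and aars-1 (85.8) had one, and of 65 RNA processing genes 4 did, snr-1 (102.7), rsp-2 (101.3), ddx-23 (100.2) and hrpf-1 (86.6). The RNA processing count was 1 without replicate 1.

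Lists of genes that fold, move and degrade proteins had shares on either side of that of all genes. Of 72 heat shock protein and chaperone genes 9 had a peak, 12.5% with an exact interval from 5.88% to 22.4%, and 5 did away from every non-coding RNA gene. They were led by hsp-3, the BiP-type chaperone of the endoplasmic reticulum, with 226.7 pooled, 123.4 in replicate 1 and 107.1 in replicate 2. Behind it came hsp-110 (161.7), the calreticulin gene crt-1 (139.2) and cct-1, a subunit of the cytosolic chaperonin (134.6). Of 111 vesicle traffic genes 10 had one, 9.01%, with sec-61.G (248.8), trap-2 (179.1) and the divergent pair trap-3 and sec-61.B (158.6), all parts of the translocation site of the endoplasmic reticulum. Of 33 proteasome genes only rpn-3 (161.7) had one, at the promoter it shares with hsp-110, and 0 did away from every non-coding RNA gene. That share was 3.03%, with an exact interval from 0.0767% to 15.8%. Of 69 ubiquitin genes ubc-6 (101.4) had one, 1.45% and so below the share of all genes, where 3 did with replicate 1 left out, 3 with replicate 2 left out and 2 with 1000 bp. That list does not hold the E3 ligase genes wwp-1 (222.0) and rnf-121 (153.3), which had peaks.

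Mitochondrial and lysosomal genes were counted in the same way. Of 64 genes of the respiratory chain and ATP synthase 6 had a peak, 9.38%, led by the cytochrome c oxidase gene cox-5A with 199.6 pooled, 100.1 in replicate 1 and 103.0 in replicate 2, then ndub-8 (133.7), ucr-2.1 (130.8) and atp-3 (97.8). Of 70 mitochondrial ribosomal protein genes 4 had one, mrpl-32 (110.6), mrps-31 (104.6), mrpl-28 (95.9) and mrps-7 (84.5), a count of 2 without replicate 1. Of 15 mitochondrial import genes tomm-20 (115.6) had one, and ddp-1 (132.0), a Tim8 gene by its RefSeq product whose name is not in the list, had one too. Of 76 autophagy and lysosome genes 6 had one, 7.89%, with the Atg8-family gene lgg-2 (154.7), the cathepsin genes cpr-4 (119.4) and cpl-1 (116.6), and the autophagy gene epg-7 (110.7).

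Among regulators the shares were nearer the background. Of 198 transcription factor genes other than nuclear hormone receptors 6 had a peak, 3.03%, namely xbp-1 (240.7), elt-2 (173.2), the ETS factor gene ets-4 (148.9), ztf-7 (127.7), mdl-1 and elt-4, a GATA factor gene. The count was 10 without replicate 2 and 3 with 300 bp. Of 274 nuclear hormone receptor genes 7 had one, 2.55%, led by nhr-68 (298.9), nhr-35 (161.8), nhr-57 (109.9) and nhr-256 (100.4), and 4 did without replicate 1 and 3 with 300 bp. Of 72 histone genes 3 had one, his-37 (156.7) and the divergent pair his-61 and his-62 (94.4), and 5 did without replicate 2. Of 63 actin and tubulin cytoskeleton genes tba-2 (119.5) and act-5 (93.3) had one, with counts of 1 without replicate 1, 4 without replicate 2 and 4 with 1000 bp.

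Genes of the insulin-like pathway and genes that change in daf-2 mutants were looked up next. Of 24 insulin-like signalling genes 0 had one, with an upper exact bound of 14.2%, and of 39 insulin-like peptide genes 0, with a bound of 9.03%. Both bounds include the 1.91% of all genes, and with 1000 bp to a start the counts were 2 and 1. Of 39 genes raised in daf-2 mutants 3 had one, 7.69% with an interval from 1.62% to 20.9%, and 5 did without replicate 1. They were the aquaporin gene aqp-1 with 146.5 pooled, 68.0 in replicate 1 and 83.4 in replicate 2, the glyoxylate cycle gene icl-1 with 118.9, which shares its divergent peak with srh-2, and dod-3 with 117.1. The aqp-1 and dod-3 windows hold TGATAAG and the icl-1 window holds TGTTTAC. Of 18 genes lowered in daf-2 mutants only the yolk protein gene vit-2 had one. Of 29 antioxidant and metallothionein genes 0 did, with an upper bound of 11.9%, and 1 did with 1000 bp.

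Among genes looked up by name, elt-2 alone had a start-proximal peak. No entry of the pooled list, background entries included, had its summit at most 500 bp from a start of daf-16, of the superoxide dismutase gene sod-3 or of the metallothionein gene mtl-1. The daf-16 and ges-1 results are not comparable with the others. The animals carry the daf-16(mu86) deletion and a daf-16a transgene under the ges-1 promoter. The effect of these on entries there was not tested. The entry with the highest signal by a start was at nuclear rank 1732 of the pooled list for hlh-30, a regulator of autophagy genes, at 2739 for the stress factor gene skn-1, at 4843 for pqm-1, a factor linked to TGATAAG, at 12693 for daf-2 and at 16172 for ges-1. All these summits lay inside a protein-coding gene, and all ranked below the optimal set.

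Genes of lipid metabolism, detoxification and large gene families had shares on either side of 1.91%. Of 89 lipid metabolism genes elo-6, a fatty acid elongase gene (132.4), vit-2 (130.7) and the perilipin gene plin-1 (88.3) had a peak, and 1 of the list did with 300 bp. Of 74 cytochrome P450 genes cyp-33C7 (112.9) had one, and 0 did without replicate 2 and 2 with 1000 bp. Of 67 UDP-glucuronosyltransferase genes ugt-54 (99.8) and ugt-47 (97.1) did, with 4 without replicate 1 and 1 without replicate 2, and of 49 glutathione S-transferase genes 0, with 1 without replicate 2. Of 175 collagen genes 0 had one, with an upper exact bound of 2.09%, and of 240 genes with C-type lectin (clec) names 0, with a bound of 1.53%, where 2 did with 1000 bp. D1005.10, a C-type lectin domain gene by its RefSeq product but not by name, was near a start-proximal peak shared with dhs-25 (108.6). Of 1309 chemoreceptor genes 3 had one, 0.229% with an interval from 0.0473% to 0.668%, namely srz-62 and, at divergent promoters, srh-2 and srh-16. Of 412 genes with names of the F-box and MATH-BTB families 5 did, among them bath-36, fbxa-108 (141.3), fbxb-72 (110.9) and fbxb-85 (91.0), and of 102 neuropeptide genes nlp-4 (99.4), a count of 0 without replicate 1. By RefSeq product, 4 F-box domain genes outside that list also had a peak, K08B5.2 (280.5), T10C6.15 (227.8), fbxl-2 (126.4) and Y6G8.2 (96.4).

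Since the transgene is expressed in the intestine, tissue markers were looked up as well. These lists describe promoters and are no check of which cells the samples held. Of 20 intestine markers 4 had a peak, with an exact interval for the share from 5.73% to 43.7%. None of the 4 was at a divergent promoter, beside 136 of all 382 genes with a peak. They were elt-2, vit-2 with 130.7 pooled, 61.02 in replicate 1 and 75.2 in replicate 2, act-5, an actin gene of the intestine (93.3), and cpr-6, a cysteine protease gene (91.7). Of 13 neuron markers 0 had one, with an upper bound of 24.7%, of 10 body muscle and 10 germline markers 0, with a bound of 30.8% each, and of 9 hypodermis markers 0, with a bound of 33.6%. With 1000 bp, 1 germline marker had one. The bounds of these 4 lists include the share of the intestine markers, so no difference between tissues is shown.

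**Figure D5:**
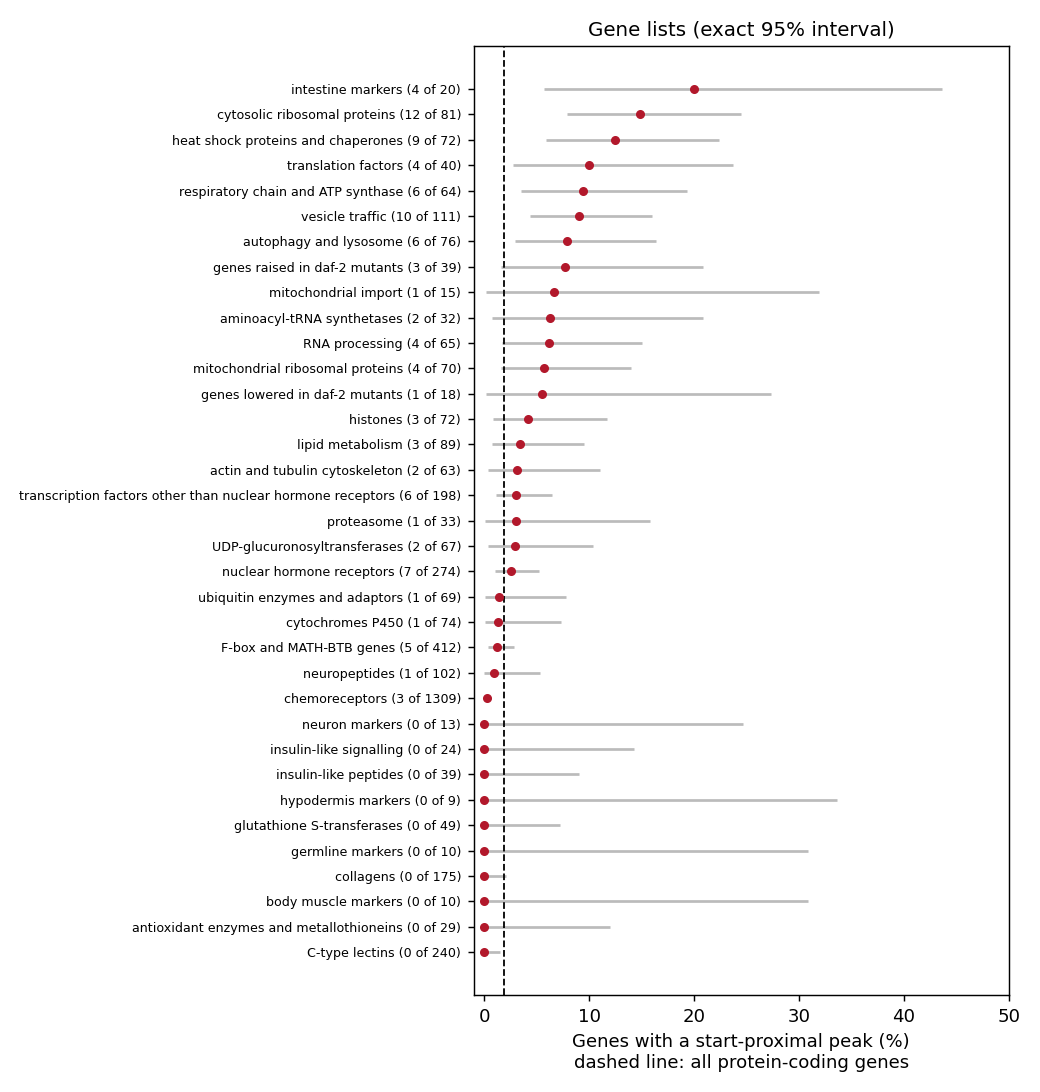
Percent of the genes of each of 35 lists with a start-proximal summit at most 500 bp from a start (horizontal axis), with exact 95% intervals and the counts beside each name, and 1.91% of all protein-coding genes as a dashed line. Intestine markers (4 of 20), cytosolic ribosomal proteins (14.8%) and chaperones (12.5%) are at the top, and lists with 0 genes at the foot.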

How the data were processed

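The samples were 2 anti-GFP ChIP-seq replicates of 1 group. On ce11 the authors deposited a signal per peak and a summit offset for 28175 entries of replicate 1, 22676 of replicate 2, 30000 of both pooled, and 1489 of the optimal set, thresholded by irreproducible discovery rate, per the file names. The aligner, peak caller, threshold and signal scale were not given in the sources used here, and signal served only to rank and describe peaks. The replicate and pooled lists include background, so lower-ranked entries are not all peaks. The ce10 lists were not used here. Depth is unknown, and exact (Clopper-Pearson) 95% intervals cover counting only. Replicates are biological, per the labels.

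Summits were placed on RefSeq's copy of the WBcel235 genome, which is ce11, with Ensembl release 115 genes (29314 protein-coding starts) and RefSeq product names. Ranks were by signal. Motifs were searched on both strands, 50 bp to each side of summits and of points 500 bp away. In the direction of the nearest start, that point lay past the start. Shares were compared by Fisher's exact test and by the exact McNemar test, two-sided, with Benjamini-Hochberg adjustment over 5 comparisons, over 9 motifs within each comparison, or over 8192 7-letter sequences. Peaks served as the counted units and are not replicates: neighbours can be dependent, and p-values say nothing of the spread between animals. The code was tested on simulated data. Python 3.11.15, numpy 2.4.6, scipy 1.17.1, pandas 2.3.3 and matplotlib 3.10.9 were used.

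The members and the 35 lists were chosen with earlier results of these data known. Named genes were those of the 15 highest peaks, up to 4 per list, the 5 highest with TGATAAG, with TGTTTAC and at divergent promoters, the 3 with the largest rank difference between replicates, those next to the distance limits, and daf-16, daf-2, sod-3, mtl-1, ges-1, elt-2, skn-1, pqm-1 and hlh-30. Other genes named were chosen after their values were seen. Alternatives changed the distance, the interval rule, the non-coding genes left out, the definition of divergent, the rank threshold, the overlap, the motif window, the flank and the background. Leaving out a replicate put the other's 1489 highest-signal entries in place of the optimal set. The autosomes alone, and the alternatives for single lists, other motifs and peaks inside genes, were added after the data were seen.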

Additional observations from a re-analysis of the deposited data

How the results depend on the processing

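The number of start-proximal peaks, the higher divergent share, the TGATAAG excess over flanks and the absence of a call for ranks and for presence in both replicates kept their direction or their side of the threshold in every alternative run for them, except that the uncalled differences in rank between divergent and single promoters and against peaks inside genes, and in presence in both replicates changed sign in some. The autosomes alone were an alternative chosen after seeing the data, and changed no call there. The share of genes with a peak was 1.38% with 300 bp to a start, 2.67% with 1000 bp and 1.68% away from every non-coding RNA gene, as fewer or more peaks were admitted. TGATAAG at divergent against single promoters lost its call with 300 bp (a difference of -10.8 percentage points), with head-to-head neighbours (-1.59) and with a replicate left out (-9.77 to -8.84). The cause was not tested. TGTTTAC at summits gained a call with 1000 bp (3.16 points), with the flank towards the start (4.17), with 100 bp to each side (5.45) and with a replicate left out (3.67 to 4.42). The cause was not tested. TGATAAG gained one against far intergenic peaks with 100 bp to each side (-8.48 points). The number of 7-letter sequences more frequent at summits was 111 with 300 bp, and 100 to 131 with a replicate left out. No paired analysis was possible because there is 1 group, so no groups share replicate numbers. The McNemar tests pair 2 windows of the same peak. Without depth, a missing peak may lie below detection.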

Other observations

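Genes of the endoplasmic reticulum near the start-proximal peaks are given as a description. The list was chosen after the values were seen and has no test, so a high share is in part built in. Some of its genes were also counted in the chaperone and vesicle traffic lists above. It holds the genes of protein translocation, glycosylation, folding, degradation and the unfolded protein response that could be matched by name. Of its 56 genes 14 had a peak, beside 1.91% of all protein-coding genes. The exact 95% interval of the share, from 14.4% to 38.4%, does not allow for the choice of the list. At a peak among the upper 732 nuclear ranks were 11 of the 14, beside 159 of all 382 genes with a peak. They included serp-1.1, sec-61.G, xbp-1 and hsp-3, described above, and cdc-48.1, the ATPase that draws proteins out of the membrane for degradation, with 225.6 pooled, 128.1 in replicate 1 and 96.5 in replicate 2. Lower down were ufbp-1 (135.3), dad-1, an oligosaccharyltransferase subunit gene (128.6), trap-1 (87.1) and dnj-29 (84.7). No peak of this list held TGATAAG or TGTTTAC within 50 bp of its summit. Of all 382 genes with a peak only 30 were at one with TGATAAG and 18 at one with TGTTTAC, so 0 of 14 sets the list apart little. At divergent promoters were 6 of the 14 genes, beside 136 of the 382.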
